A study of Mus musculus with 6 samples.

Results

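The genes described here encode receptors through which eosinophils and other leukocytes sense chemoattractants: the chemokine receptors Ccr1, Ccr2, Ccr3 and Cxcr4, the formyl peptide receptors Fpr1 and Fpr2, the sphingosine-1-phosphate receptors S1pr1 and S1pr3 and the leukotriene B4 receptor Ltb4r1. They were taken from the array table as every probe set that the platform annotation pairs with 1 of these 9 symbols and no other. This gave 12 probe sets of 7 genes, out of 45037 probe sets and 17097 genes. No probe set was named for Cxcr4 or Fpr1 alone, and neither gene was analysed here.

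The samples were cells sorted as eosinophils from the stromal vascular fraction (SVF) of inguinal subcutaneous adipose tissue (subcut AT). The FVB/NJ mice were 3 WT and 3 Klf3-/-. All were male littermates of 12 weeks from crosses of Klf3+/- parents, kept at 22 °C. The gate took live cells of high side scatter that stained for CD45, CD11b, F4/80 and Siglec-F, and each mouse gave 1 Affymetrix GeneChip HT MG-430PM array, so n = 3 mice per genotype. The Klf3-/- mice lack KLF3, a transcriptional repressor, in every tissue. The comparison asks what the absence of KLF3 changes in the expression of cells from this gate. Values are intensities, shown as log2 units after quantile normalisation between arrays unless said otherwise, since the deposited array medians ranged from 30.3 to 58.7. The number of arrays limits the precision throughout. The background level of 5.10 log2 units is the 95th percentile over 44 olfactory receptor probe sets. Since each probe set has its own response, the receptors are not ranked by level.

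Chemoattractant receptors span the membrane several times and signal through heterotrimeric G proteins, mainly of the Gi family, to the cytoskeleton. Chemokine receptors bind small secreted proteins, and Ccr3 is the receptor for eotaxins by which eosinophils are best known to enter tissue. Formyl peptide receptors sense bacterial peptides and host proteins such as annexin A1. Ltb4r1 senses a lipid made from arachidonic acid, and S1pr1 guides lymphocytes out of lymphoid organs along a gradient of sphingosine-1-phosphate. Arrestins, receptor kinases and RGS proteins switch these signals off.

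KLF proteins bind boxes of the CACCC type in DNA, so the 250 bases before the start of each receptor gene were searched for CACCC on both strands (RefSeq, GRCm38.p6). A promoter was at hand for 8 of the 9 genes, and 4 of them held the letters, beside 52.0% of 32851 promoters of the same length. Of the promoters, 3 are shown, chosen after the array values were seen: Ltb4r1 and Ccr1 because they had the smallest p-values on the arrays, and S1pr3 because it was the other receptor above background whose promoter held the letters. Matches are in capitals, as CACCC on the strand of the gene or GGGTG on the other strand.
Ltb4r1, chr14:55765712-55765961, plus strand: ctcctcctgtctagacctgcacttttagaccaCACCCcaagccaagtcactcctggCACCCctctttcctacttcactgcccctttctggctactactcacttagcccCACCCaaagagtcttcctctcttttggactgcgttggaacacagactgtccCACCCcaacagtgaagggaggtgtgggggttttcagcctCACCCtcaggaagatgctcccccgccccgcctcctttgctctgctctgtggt
S1pr3, chr13:51408368-51408617, plus strand: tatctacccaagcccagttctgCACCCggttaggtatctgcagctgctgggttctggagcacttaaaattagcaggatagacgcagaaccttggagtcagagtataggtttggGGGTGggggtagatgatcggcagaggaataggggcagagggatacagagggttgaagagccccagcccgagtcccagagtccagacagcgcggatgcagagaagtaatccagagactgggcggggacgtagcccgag
Ccr1, chr9:123968693-123968942, minus strand: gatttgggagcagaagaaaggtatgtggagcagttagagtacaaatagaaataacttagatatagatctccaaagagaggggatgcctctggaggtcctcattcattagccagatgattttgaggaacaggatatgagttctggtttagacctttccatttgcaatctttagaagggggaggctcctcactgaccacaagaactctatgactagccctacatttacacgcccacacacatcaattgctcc
The Ltb4r1 stretch held the most matches of the 8, with 5, all on the strand of the gene. Of all promoters, 219 (0.67%) held as many or more. That share is for 1 promoter taken at random, and the highest of 8 reaches such a count more often. The S1pr3 stretch held 2 matches, 1 on each strand. Ccr3 and Cxcr4 held 1 each, and Ccr1, Ccr2, Fpr1 and Fpr2 held 0. These matches describe the letters in these windows and say nothing about binding of KLF3.

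No receptor differed between genotypes after adjustment. Ccr1 was the 1 receptor with an unadjusted p under 0.05 and was higher in Klf3-/-, and for Ltb4r1 the Klf3-/- arrays did not overlap with the lower WT arrays. Ccr2, Fpr2 and S1pr1 had slightly higher means in Klf3-/- and S1pr3 a slightly lower one, all within the spread between mice. Ccr3 lay below background in all 6 arrays. With limma, 0 of 45037 probe sets (0%) had an adjusted p under 0.05, and 2475 had an unadjusted p under 0.05. A plain analysis of variance also called 0 after adjustment and 2240 at the unadjusted threshold. The 2475 were 1398 higher in Klf3-/- (3.10%) and 1077 lower (2.39%), and on the values as deposited the split was 1150 higher and 62 lower. Every Klf3-/- array lay above every WT array for 4.49% of probe sets and below for 6.51%. By the brightest probe set of each gene, 3.61% of genes were higher and 2.47% lower at the unadjusted threshold. Among the 12 receptor probe sets, 1 had an unadjusted p under 0.05 and 2 did not overlap between genotypes, 1 in each direction.

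The mean was higher in Klf3-/- for 6 of the 7 receptor genes, with a median log2 fold change of 0.40, while over all genes 44.8% were higher and the median was −0.04. On the values as deposited the medians were 0.61 for the receptors and 0.13 for all genes, so part of each fold change on that scale is a shift shared by the whole array. The 6 include Ccr3, which was below background, and Fpr2 and S1pr1, whose sign turned when 1 array was left out. Of the 4 genes above background whose sign held without each array, Ccr1, Ccr2 and Ltb4r1 were higher and S1pr3 was lower. Of the 12 probe sets, 4 were higher in Klf3-/- within all 3 pairs of mice with the same replicate number, as were 11.5% of all probe sets, and 2 of the 4 read the same gene, Ccr2. Lower in all 3 pairs was 1 receptor probe set, beside 18.0% of all. Above background in all arrays were 7 probe sets, 2 in some arrays and 3 in none. In samples of this kind fewer cells of a type and less RNA per cell cannot be told apart.

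**Figure D1:**
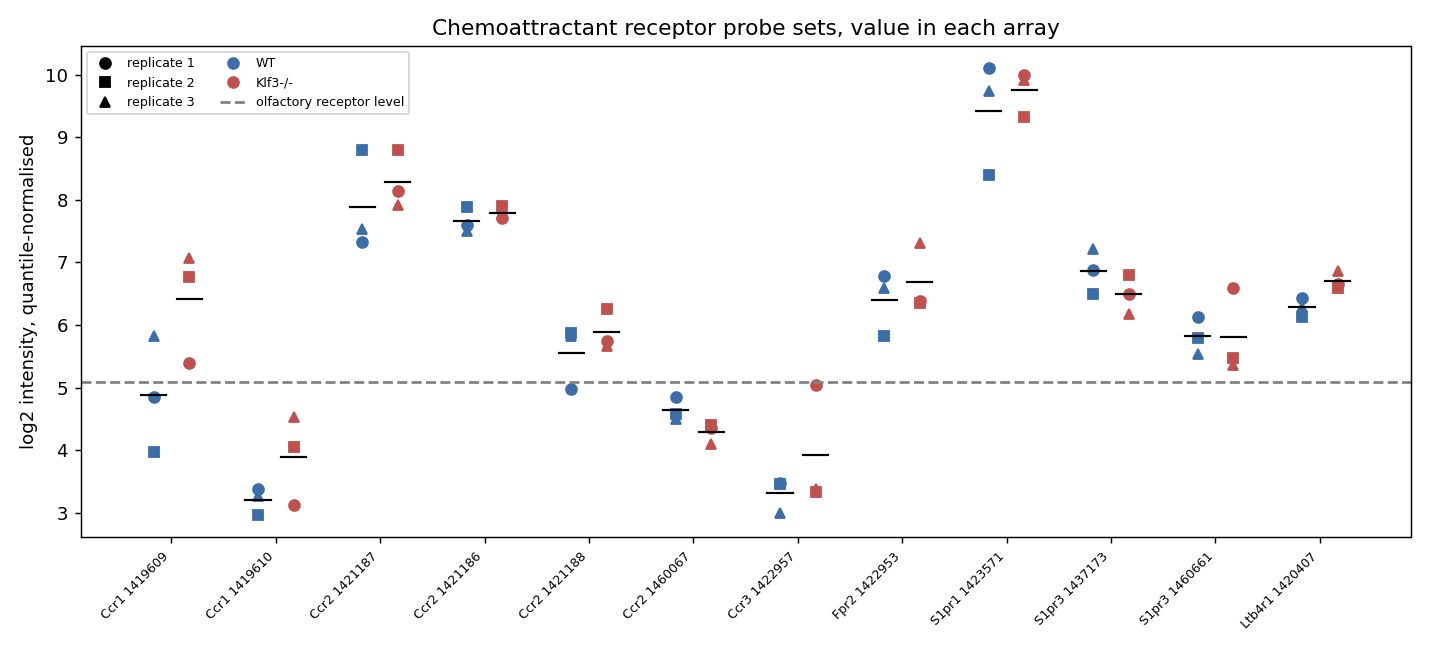
Log2 intensity after quantile normalisation of the 12 receptor probe sets in each array, WT and Klf3-/- side by side, with 1 marker shape per replicate number, group means as black bars and the olfactory receptor level of 5.10 as a dashed line. Ccr3 lies under the line in all 6 arrays, the brighter Ccr1 probe set spreads from 3.98 to 7.07, and the Ltb4r1 points are tight, with the Klf3-/- arrays above the WT arrays.

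The identity of the sorted cells could be checked only weakly. Siglecf, the gene of the protein that the gate stained, read 4.81, 4.42 and 4.51 log2 units in WT mice 1 to 3 against 4.28, 4.11 and 4.07 in Klf3-/- mice 1 to 3, all below background. Of 11 measured eosinophil markers, 6 lay above background in the mean. Adgre1, Hdc and Cd300lf were above it in all 6 arrays, while Ptgdr2 (5.23), Prg3 (5.20) and Ltc4s (5.13) lay close to it. Hdc was highest in mouse 2 of both genotypes (8.97 in WT, 9.79 in Klf3-/-), like the mast cell and basophil markers described below. Adgre1 was highest in Klf3-/- mouse 3 (9.42), like the macrophage markers described below. The granule protein genes Epx and Prg2, the interleukin-5 receptor gene Il5ra and Alox15 of the same list were below background in all 6 arrays. Klf3 itself was read by 6 probe sets, 5 higher and 1 lower in all Klf3-/- arrays. Their place relative to the disrupted stretch was not known here, and they do not check the genotype. Genes of other cell types read well above background, among them C1qa of the macrophage list (mean 12.12) and Col3a1 of the stromal list (12.71). The word eosinophil is kept as the name of the gate and is not a finding about the cells.

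Ccr1 binds the chemokines Ccl3, Ccl5, Ccl6, Ccl7 and Ccl9 in the mouse. Its brighter probe set read 4.86, 3.98 and 5.83 log2 units in WT mice 1 to 3 and 5.40, 6.77 and 7.07 in Klf3-/- mice 1 to 3. The groups overlapped, because WT mouse 3 was above Klf3-/- mouse 1. WT averaged 4.89 ± 0.92 and Klf3-/- 6.41 ± 0.89 (SD, n = 3 each). With 2 of 3 WT arrays below background, the size of the difference is inexact. The log2 fold change was 1.52 (standard error 0.58, 95% interval 0.16 to 2.88), with an unadjusted p of 0.0328 and an adjusted p of 0.868 by limma. An exact two-sided permutation test gave p = 0.2, where 0.1 is the smallest that 3 against 3 allows, and a one-sided exact Mann-Whitney test for higher values in Klf3-/- gave 0.1, where 0.05 is the smallest. As deposited, the intensities were 25.3, 20.7 and 38.9 in WT and 46.0, 165 and 102 in Klf3-/-, which do not overlap (exact p = 0.1). Ccr1 was above background in WT mouse 3 and in all 3 Klf3-/- mice.

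Within replicates 1 to 3 the Ccr1 difference was 0.53, 2.78 and 1.24 log2 units, so that mouse 2 of each genotype set the widest gap. Leaving out 1 array gave log2 fold changes from 1.07 to 2.03. The unadjusted p moved above 0.05 without WT mouse 1 (0.0731), WT mouse 2 (0.105), Klf3-/- mouse 2 (0.0927) or Klf3-/- mouse 3 (0.105). The dimmer Ccr1 probe set was below background in all arrays, with a log2 fold change of 0.70 and an adjusted p of 0.910 by limma. Monocytes are known to carry Ccr1, and their markers summed to 3254 to 4489 in WT arrays and 4796 to 7564 in Klf3-/- arrays, with all 7 measured genes above background. By the mean of their log2 values the genotypes overlapped, at 8.16 to 8.55 in WT and 8.47 to 9.11 in Klf3-/-, and 4 genes had higher and 3 lower means. The sums lean on the brightest of these genes, Ly6c1, F13a1 and Nr4a1, with log2 fold changes of 0.85, 1.37 and −0.18. F13a1 read 9.70, 9.40 and 9.77 in WT mice 1 to 3 and 9.94, 11.11 and 11.92 in Klf3-/- mice 1 to 3. The part of monocytes in the Ccr1 difference was not tested.

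Ccr2, the receptor that brings monocytes to tissue along Ccl2, was read by 4 probe sets. The brightest read 7.33, 8.79 and 7.54 log2 units in WT mice, against 8.14, 8.80 and 7.92 in Klf3-/- mice. Mouse 2 was the highest of both genotypes and the groups overlapped. The means of 7.88 ± 0.79 and 8.29 ± 0.46 (SD, n = 3 each) differed by 0.40 (95% interval −0.60 to 1.40), with an adjusted p of 0.955 by limma. As deposited, the intensities were 138, 691 and 116 in WT and 308, 703 and 180 in Klf3-/-. Single arrays moved the log2 fold change widely. It was 0.85 without WT mouse 2, with an unadjusted p of 0.0314 by limma, but 0.13 without WT mouse 1, 0.23 without WT mouse 3 and 0.15 without Klf3-/- mouse 2. Of the other probe sets, 2 had log2 fold changes of 0.13 and 0.33. The last lay below background in all arrays and ran the other way, at 4.85, 4.58 and 4.50 in WT against 4.36, 4.41 and 4.11 in Klf3-/-, without overlap. As deposited this probe set overlapped between genotypes, so it gives no direction for Ccr2.

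The mast cell and basophil markers were also highest in mouse 2 of both genotypes, with sums of 380.6, 3880 and 847.7 in WT mice 1 to 3 and 1367, 8060 and 773.6 in Klf3-/- mice 1 to 3. Of these markers 7 of 9 lay above background, led by Cma1, Cpa3 and Mcpt4, and 0 had an unadjusted p under 0.05 by limma. The dendritic cell markers were highest in WT mouse 2, at 14080, but lowest of all arrays in Klf3-/- mouse 2, at 6448. That array had the highest value of the brightest Ccr2 probe set, 8.80. The remaining arrays ranged from 6514 to 8692. Among the 11 measured dendritic cell genes, 9 means were lower and 2 higher without KLF3 (list median −0.71), where Ccr2 had 0.40. The part of mast cells, basophils and dendritic cells in the Ccr2 values was not tested.

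Ccr3 read 3.48, 3.46 and 3.00 log2 units in WT mice, against 5.04, 3.33 and 3.39 in Klf3-/- mice. Klf3-/- mouse 1 stood apart from the other 5 arrays and came close to background without passing it. The log2 fold change was 0.60 (95% interval −0.49 to 1.70), with an adjusted p of 0.947 by limma, and without Klf3-/- mouse 1 it was 0.04. At this signal over background a difference in Ccr3 was not detectable. Ccr1, Ccr3 and Ccr2 lie close together on chromosome 9, with only Ccr1l1 between Ccr1 and Ccr3 among coding genes of the RefSeq table. The brightest probe sets of Ccr1 and Ccr2 were both higher in Klf3-/- within all 3 pairs, although the Ccr2 difference in replicate 2 was 0.01. Ccr3 was lower in replicate 2 (−0.13) and the dimmer Ccr1 probe set in replicate 1 (−0.26). Xcr1, the coding gene on the other side of Ccr1, had a log2 fold change of −1.015. A shared change of these genes was not tested.

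Fpr2, the low-affinity formyl peptide receptor that also binds annexin A1 and lipoxin A4, read 6.79, 5.83 and 6.60 log2 units in WT mice. In Klf3-/- mice it read 6.38, 6.36 and 7.31. The groups overlapped, with WT mouse 2 lowest and Klf3-/- mouse 3 highest. The means of 6.41 ± 0.51 and 6.69 ± 0.54 (SD, n = 3 each) gave a log2 fold change of 0.28 (95% interval −0.57 to 1.12) and an adjusted p of 0.965 by limma. The sign turned without WT mouse 2 (−0.01) or Klf3-/- mouse 3 (−0.04), so no direction can be given.

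Fpr2 is known from neutrophils, and their markers summed to 1429, 1865 and 2588 in WT mice 1 to 3 and 3395, 3656 and 7348 in Klf3-/- mice 1 to 3. Klf3-/- mouse 3 was highest for Fpr2 and for these markers, but the WT orders differed. Among WT mice Fpr2 was highest in mouse 1, where the neutrophil markers were lowest. Macrophage markers also summed highest in Klf3-/- mouse 3 (38380) and, like Fpr2, lowest in WT mouse 2 (11880). Of 13 measured neutrophil markers 11 were above background, led by Mmp9, Il1r2 and S100a9, while Elane and Mmp8 were below it in the mean. At the unadjusted threshold 3 were higher and 0 lower by limma, beside 3.61% of all genes higher and 2.47% lower. Il1r2, a decoy receptor for interleukin-1, had a log2 fold change of 1.96 and S100a9, a calcium-binding alarmin, 0.79. In all 9 had higher means and 4 lower ones, Camp, Cxcr2, Elane and Mpo, with log2 fold changes from −1.49 to −0.39. By the mean of their log2 values the genotypes overlapped, at 5.82 to 6.91 in WT and 6.83 to 7.35 in Klf3-/-. The part of neutrophils and macrophages in the Fpr2 values was not tested.

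Ltb4r1, the high-affinity leukotriene B4 receptor of myeloid cells, read 6.43, 6.13 and 6.29 log2 units in WT mice, against 6.66, 6.60 and 6.86 in Klf3-/- mice. No WT array reached any Klf3-/- array, and by brightest probe set the SD within a genotype was the smallest among the receptors above background. The means were 6.28 ± 0.15 and 6.71 ± 0.13 (SD, n = 3 each), a 1.34-fold difference. The log2 fold change was 0.42 (standard error 0.18, 95% interval −0.01 to 0.85), with an unadjusted p of 0.0527 and an adjusted p of 0.901 by limma. By exact two-sided permutation p was 0.1, and a one-sided exact Mann-Whitney test gave 0.05, each the smallest that test can give. Within replicates 1 to 3 the differences were 0.24, 0.47 and 0.57, all in the same direction.

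As deposited, Ltb4r1 read 74.0, 95.8 and 51.8 in WT and 112, 146 and 88.9 in Klf3-/-, and the groups overlapped, since WT mouse 2 was above Klf3-/- mouse 3. Over all alternatives run its unadjusted p by limma ranged from 0.0489, after centring each array on its median, to 0.150 on the values as deposited. The promoter of Ltb4r1 held 5 CACCC matches, while that of Ccr1 held 0 and that of S1pr3, which had a lower mean in Klf3-/-, held 2. A link between these matches and expression was not tested.

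S1pr1, which couples to Gi and keeps lymphocytes and endothelium responsive to sphingosine-1-phosphate, read 10.10, 8.40 and 9.73 log2 units in WT mice, against 10.00, 9.32 and 9.92 in Klf3-/- mice. The groups overlapped, and mouse 2 was lowest in both genotypes. The means of 9.41 ± 0.90 and 9.75 ± 0.37 (SD, n = 3 each) gave a log2 fold change of 0.34 (95% interval −0.72 to 1.39) and an adjusted p of 0.966 by limma. Without WT mouse 2 the sign turned (−0.17). As deposited, the intensities were 935, 522 and 517 in WT and 1070, 1000 and 717 in Klf3-/-.

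Endothelial markers summed to 5722, 2086 and 8937 in WT mice 1 to 3 and 5205, 1608 and 6293 in Klf3-/- mice 1 to 3. They too were lowest in mouse 2 of both genotypes, but highest in mouse 3, where S1pr1 was highest in mouse 1. Pecam1, an adhesion molecule of endothelium and leukocytes, read 10.54, 8.14 and 10.75 in WT and 10.37, 8.64 and 10.38 in Klf3-/-. All 14 measured endothelial markers were above background and 0 had an unadjusted p under 0.05 by limma. Their means were higher in Klf3-/- for 2 and lower for 12, with a median log2 fold change of −0.55. T, NK and innate lymphoid cells also carry S1pr1. Their markers summed to 5358, 2325 and 3313 in WT mice 1 to 3 and 5381, 2895 and 1703 in Klf3-/- mice 1 to 3. Among WT mice this was the order of S1pr1, but among Klf3-/- mice these markers were lowest in mouse 3. B cell markers summed to 1765 to 2744 in WT and 1180 to 2891 in Klf3-/-. The part of these cells in the S1pr1 values was not tested.

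S1pr3, which couples to Gi, Gq and G12/13 and is known from vessels and smooth muscle, was read by 2 probe sets. The brighter read 6.88, 6.50 and 7.21 log2 units in WT mice, against 6.50, 6.80 and 6.17 in Klf3-/- mice. The groups overlapped, although the highest array was WT and the lowest Klf3-/-. The means of 6.86 ± 0.36 and 6.49 ± 0.32 (SD, n = 3 each) gave a log2 fold change of −0.37 (95% interval −0.99 to 0.25) and an adjusted p of 0.942 by limma. It was −0.09 as deposited, −0.20 without WT mouse 3 and −0.21 without Klf3-/- mouse 3. The other probe set gave −0.01, with its sign turning on the deposited scale (0.20). Pericyte and smooth muscle markers summed to 2343 to 4813 in WT and 1261 to 2936 in Klf3-/-. Of these, 8 of 9 measured genes were above background, with Acta2, Myh11 and Rgs5 the brightest, and their part in the S1pr3 values was not tested.

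**Figure D2:**
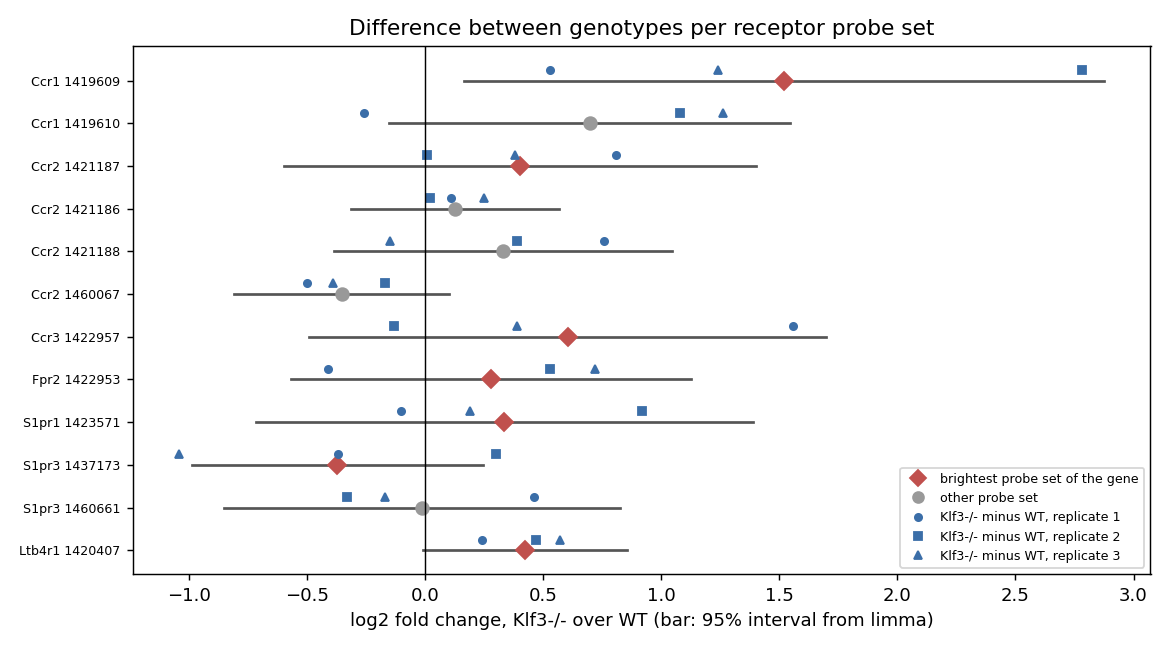
Log2 fold change of each receptor probe set, Klf3-/- over WT, with the 95% interval from limma (before adjustment) as a bar and the difference within each replicate number as small points. The interval of the brighter Ccr1 probe set (0.16 to 2.88) is the 1 that leaves out 0, and that of Ltb4r1 reaches −0.01.

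The 13 measured chemokines that bind Ccr1, Ccr2, Ccr3 or Cxcr4 were all above background in the mean, and 8 had higher and 5 lower means in Klf3-/-. Their median log2 fold change was 0.76, and 0.98 as deposited, beside −0.04 and 0.13 over all genes. At the unadjusted threshold 3 were higher and 0 lower, beside 3.61% of all genes higher and 2.47% lower, and 0 passed adjustment by limma. Without Klf3-/- mouse 3 the median was 0.13, so this array carried most of the difference.

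Ccl6, a macrophage and myeloid chemokine that binds Ccr1, read 8.77, 8.70 and 9.18 log2 units in WT and 9.49, 10.32 and 11.20 in Klf3-/-. The groups did not overlap, and the log2 fold change was 1.46, with a standard error of 0.42 and an adjusted p of 0.854 by limma. Cxcl12, the ligand of Cxcr4 made by stromal cells, read 7.51, 7.81 and 8.83 in WT and 8.96, 10.90 and 8.96 in Klf3-/-. It did not overlap either, with a log2 fold change of 1.56 and an adjusted p of 0.868 by limma. Ccl11, an eotaxin that binds Ccr3, read 5.99, 5.81 and 6.29 in WT and 7.16, 8.0 and 6.29 in Klf3-/-, so that mouse 3 was equal in both genotypes to the digits shown, and the groups overlapped as deposited. Its log2 fold change was 1.12 (adjusted p = 0.868 by limma). The brightest of the list, Ccl5 and Ccl8, had log2 fold changes of −0.52 and 0.40, with unadjusted p of 0.293 and 0.338 by limma.

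Stromal fibroblast and preadipocyte markers, whose cells make Cxcl12 and Ccl11, summed to 10770, 13090 and 18000 in WT mice 1 to 3 and 18150, 29030 and 20240 in Klf3-/- mice 1 to 3. Mouse 2 of Klf3-/- was the highest array for these markers, for Cxcl12 and for Ccl11. All 14 measured genes were above background in the mean and had higher means in Klf3-/-. Of these, 8 had an unadjusted p under 0.05 by limma, beside 3.61% of all genes higher at that threshold. Pi16 lay near background, at a mean of 5.16, and above it in 0 of 3 WT arrays. The median log2 fold change of the list was 1.01, and the 3 brightest genes lay under it, with 0.71 for the matrix proteoglycan gene Dcn, 0.59 for Col1a1 and 0.30 for Col3a1. Macrophage markers summed to 21910, 11880 and 19630 in WT and 15820, 18790 and 38380 in Klf3-/-, with mouse 3 of Klf3-/- highest, as for Ccl6. All 16 were above background, and 2 were higher and 0 lower at the unadjusted threshold by limma, beside the same 3.61% of all genes higher. The complement gene C1qa, the brightest, had a log2 fold change of 0.14. Stromal cells, like endothelial cells and pericytes, lack CD45, for which the gate selected. The part of these cells in the chemokine values was not tested.

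Of 5 genes for formyl peptide receptor agonists, 2 lay above background, 1 had a higher and 4 had lower means in Klf3-/-, and the median was −0.39 (−0.31 as deposited). Anxa1, which encodes annexin A1, read 8.46, 9.47 and 9.38 log2 units in WT and 10.18, 10.72 and 10.43 in Klf3-/-. The groups did not overlap, and the log2 fold change was 1.34 (standard error 0.31), with an unadjusted p of 0.0034 and an adjusted p of 0.736 by limma. This was the smallest p among the ligand genes. As deposited the groups overlapped, with 1120 in WT mouse 2 and 1040 in Klf3-/- mouse 3. Saa2, an acute-phase serum amyloid, had −0.48 (unadjusted p = 0.0357 by limma) and lay near background, at 5.29 ± 0.15 in WT and 4.81 ± 0.15 in Klf3-/- (SD). Camp, the cathelicidin stored in neutrophil granules, ranged from 2.80 to 7.55 over the arrays, with −1.49 and an unadjusted p of 0.215 by limma.

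Genes that make, degrade or export sphingosine-1-phosphate had 7 higher and 4 lower means among 11, 9 of them above background, with a median of 0.08 (0.30 as deposited). Plpp2, a lipid phosphatase, read 5.28, 6.20 and 6.52 log2 units in WT and 7.19, 6.67 and 8.54 in Klf3-/-, without overlap. Its log2 fold change was 1.47 and that of Plpp3, a related phosphatase, 0.94, with unadjusted p of 0.0265 and 0.0316 by limma. Sgpl1, the lyase that breaks the lipid down for good, ran the other way, at 9.53, 9.12 and 9.30 in WT and 9.05, 8.73 and 8.54 in Klf3-/-, without overlap here but with overlap as deposited. Its log2 fold change was −0.55, with an unadjusted p of 0.0381 and an adjusted p of 0.886 by limma. Without WT mouse 2 the median of the list turned to −0.21.

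The 4 genes of leukotriene B4 synthesis were all above background, 3 with higher and 1 with a lower mean in Klf3-/-, and the median was 0.38 (0.60 as deposited). Pla2g4a, which frees arachidonic acid, had a log2 fold change of 0.45, and Alox5, the 5-lipoxygenase, 0.54. Alox5ap, its activating protein, had 0.31, and Lta4h, which makes leukotriene B4 in the last step, −0.01. None had an unadjusted p under 0.05 by limma, the smallest being 0.150.

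Among 29 other chemoattractant receptors, 13 had higher and 16 lower means in Klf3-/-, with a median of −0.04 (0.19 as deposited), and 23 were above background. Cx3cr1, the fractalkine receptor of monocytes and macrophages, read 8.28, 8.39 and 9.39 log2 units in WT and 7.77, 6.70 and 6.93 in Klf3-/-. The groups did not overlap, and the log2 fold change was −1.55 (standard error 0.39), with an unadjusted p of 0.0053 and an adjusted p of 0.781 by limma. Ccrl2, which presents chemerin without signalling, and Gpr183, the oxysterol receptor, had −0.55 and −0.41, with unadjusted p of 0.0508 and 0.0524 by limma. Neither overlapped between genotypes after normalisation, which was likely for genes named by small p-values, but both overlapped as deposited. Over the whole list 3 of 29 genes lay lower without overlap and 0 higher, beside 6.51% and 4.49% of all probe sets.

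Genes of receptor coupling and desensitisation were all 27 above background, with 8 higher and 19 lower means in Klf3-/- and a median of −0.14. As deposited the median was 0.06, so the balance of the list depends on the scaling. At the unadjusted threshold 4 were lower and 0 higher by limma, beside 2.47% of all genes lower and 3.61% higher, and 0 passed adjustment. Rgs2, which shortens Gq signals, read 11.17, 11.08 and 10.99 log2 units in WT and 10.78, 10.49 and 10.01 in Klf3-/-, a log2 fold change of −0.65. Plcb2, a phospholipase C driven by chemoattractant receptors, had −0.62 and the receptor kinase gene Grk3 −0.71. The fourth was Rgs1, which dampens Gi signals, with −1.11 (named after its values were seen). All 4 were lower in every Klf3-/- array than in every WT array, with adjusted p from 0.868 to 0.901 by limma. Since they were named for small p-values, this gap was likely from the start. Over the whole list 4 of 27 genes lay lower without overlap and 0 higher, beside 6.51% and 4.49% of all probe sets. As deposited all 4 overlapped.

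**Figure D3:**
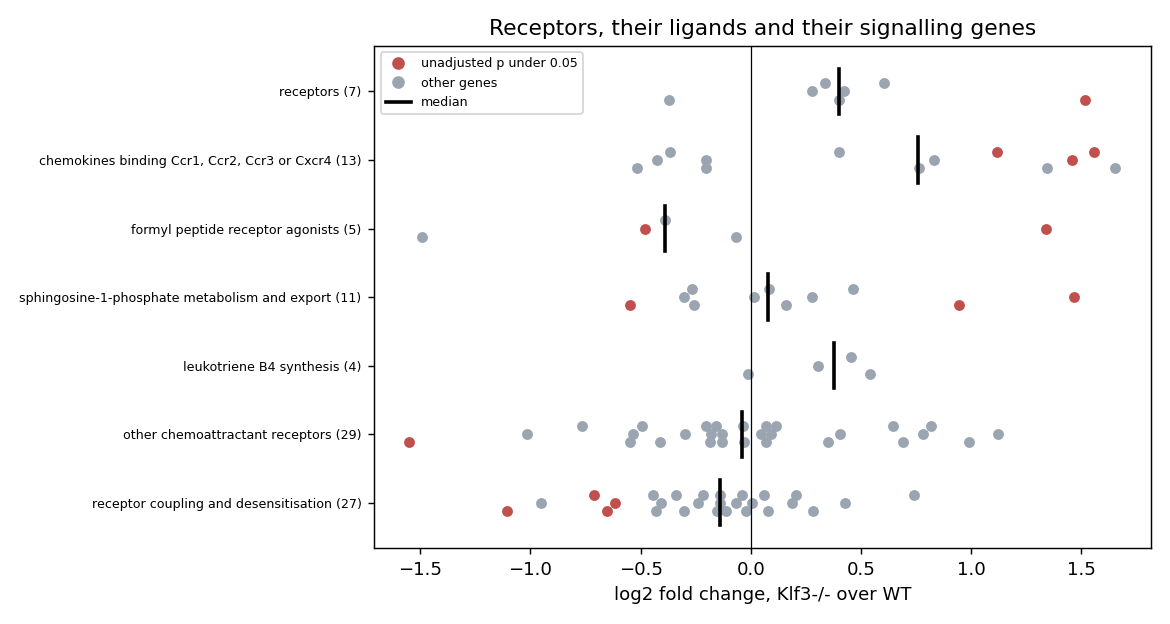
Log2 fold change, Klf3-/- over WT, of each measured gene (1 point per gene, brightest probe set) in the receptor list and the 6 lists of their ligands, lipid supply, other receptors and signalling genes, with the number measured in brackets. Red points have an unadjusted limma p under 0.05 and the bars are list medians, from −0.39 for formyl peptide receptor agonists to 0.76 for chemokines.

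**Figure D4:**
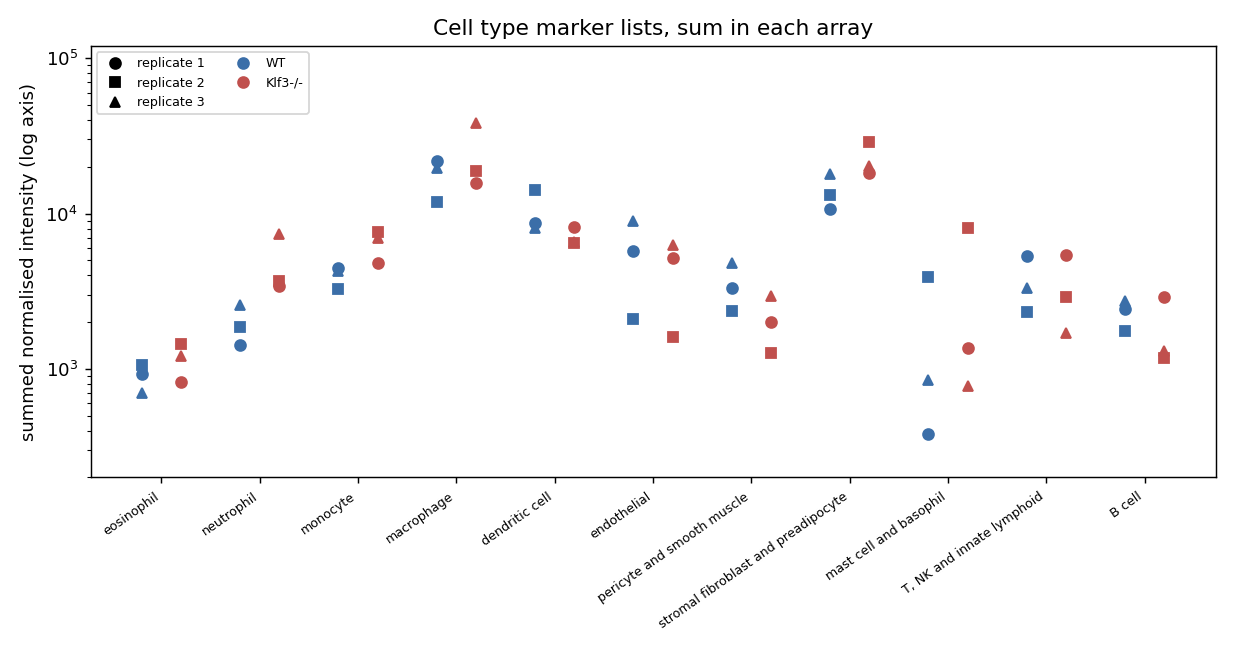
Summed normalised intensity of each cell type marker list in each array, on a log axis, with genotype by colour and replicate number by marker shape. Mast cell and basophil markers peak in mouse 2 of both genotypes and endothelial markers are lowest there. Neutrophil, monocyte and stromal sums do not overlap between genotypes, but the mean log2 values of the neutrophil and monocyte lists do.

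The genes whose values ran closest to each receptor across the 6 arrays are listed here. Pearson's r was computed against 11114 genes above background, for the 5 receptors that were above it in all arrays, and serves as a description, since 6 arrays share genotype and replicate. Nearest to Ccr2 were Cmtm6 (r = 0.994), Gmcl1 (0.980) and AW112010 (0.975). Nearest to S1pr1 were Lgals9 (0.994), Hexim1 (0.993) and Zdhhc7 (0.986). Nearest to Ltb4r1 were Cry2 (0.992), Cd164 (0.973) and Degs1 (0.970). For Fpr2 they were Igip (0.989), Cndp2 (0.985) and Wdr11 (0.984), and for S1pr3 Trnt1 (0.989), Rnf167 (0.985) and Cspp1 (0.982). The number of genes with r over 0.95 ran from 13 for Ltb4r1 to 40 for Fpr2. With 6 arrays and 11114 genes some unrelated genes reach such values, so the counts do not show shared regulation. No receptor was among the 3 nearest of another, which was likely from the start with so many genes.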

How the data were processed

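Cells sorted by the eosinophil gate from 6 mice were profiled, and for each mouse the authors deposited intensities of 45037 probe sets on a linear scale. The authors used Partek Genomics Suite for the arrays and their legend names RMA, but the array medians differed by up to 1.94-fold, so log2 values were quantile-normalised between arrays here. The deposited scale and centring on the array median were alternatives. Genotypes were compared with limma 3.58.1 (lmFit, eBayes, genotype only) in R 4.3.3, with Benjamini-Hochberg adjustment over all probe sets and a threshold of 0.05. Single receptors were also compared by exact permutation tests and a one-sided exact Mann-Whitney test, which the study's methods name. For the arrays those methods name a two-way ANOVA without its second factor, so a one-way analysis of variance was an alternative. Other alternatives were leaving out each array, a replicate block, trend or robust fitting, array weights and filters on dim probe sets.

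The platform annotation gave 28898 probe sets 1 symbol, 551 several and 15588 none, names no assembly, and 42 of its symbols were not in the RefSeq table (GRCm38.p6). The brightest probe set stood for each gene. Background was the 95th percentile of 44 olfactory receptor probe sets (34.2 on the linear scale), and 24912 probe sets (55.3%) lay above it. Without 2 pseudogenes it would be 4.79 log2 units, and Ccr1 would then be above it in 5 arrays. The mice are called litter-matched in the labels. After subtracting genotype means, arrays that share a number correlated (r = 0.17, 0.23 and 0.21 for replicates 1 to 3). Arrays with unlike numbers were not compared, so that the numbers pair the samples is an assumption. It was used for the differences within replicates and the replicate block, while the main fit and the exact tests took the samples as unpaired.

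The receptors, the gene lists and the tests were chosen with earlier results of these data known. Genes were named by rule, and the text gives those that bear on a receptor: every receptor, of each related list the 3 genes with the smallest p and the 2 brightest, of each marker list the 3 brightest, and the 3 genes most like each receptor. Figures were drawn with matplotlib 3.10.9 under Python 3.11.15. Flow cytometry, qPCR and chromatin data were not analysed here.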

Additional observations from a re-analysis of the deposited data

How the results depend on the processing

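Adjusted p-values under 0.05 numbered 0 of all probe sets in every setting run. On the values as deposited 1212 probe sets had an unadjusted p under 0.05, 62 of them lower, 1737 did not overlap between genotypes, and 1 receptor probe set (Ccr1) did not. Centring on array medians put 2 receptor probe sets (Ccr1 and Ltb4r1) under an unadjusted 0.05. Keeping only probe sets above background in the mean left 1517 at that threshold, 571 of them lower, 2752 without overlap and 1 such receptor probe set. Keeping those above it in at least 3 arrays left 1539, 582, 2801 and 1. These filters test fewer probe sets. With 1 array left out, 8593 to 10351 probe sets did not overlap, where 3 against 2 arrays overlap less often by construction. The receptor probe sets numbered 0 to 2 at the unadjusted threshold and 2 to 5 without overlap. The 2 were both of Ccr1, without Klf3-/- mouse 1, and without WT mouse 2 the 1 was Ccr2.

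Log2 fold changes of single receptor probe sets turned sign in 7 combinations of a probe set and an alternative. The block, trend and robust fits and the filters leave them as they are by construction, so only rescaling, weights, probe set choice and left-out arrays could. The 7 were the dimmer S1pr3 probe set as deposited (0.20) and without WT mouse 1 (0.14), Klf3-/- mouse 2 (0.16) or mouse 3 (0.21). Fpr2 turned without WT mouse 2 (−0.0091) or Klf3-/- mouse 3 (−0.035), and S1pr1 without WT mouse 2 (−0.17). With 1 array left out these 3 probe sets ranged from −0.40 to 0.21, −0.035 to 0.47 and −0.17 to 0.68. In the paired fit with a replicate block, 1734 probe sets were higher and 1478 lower at the unadjusted threshold, Ccr1 had an unadjusted p of 0.0180 and Ltb4r1 0.0690, and no call changed. Medians of related lists moved by more than the spread between mice for 6 of 54 values, among them the other chemoattractant receptors (−0.22 without WT mouse 2). Receptors below background, Ccr3 above all, have no usable level. The cause of these changes was not tested.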
